A study of Mus musculus with 6 samples.

Results

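The genes described here are antiviral interferon-stimulated genes, a set of 44 symbols of which 43 were found with at least 10 counts over the 6 tumors, out of 55487 genes in the count table. The rule used gene names and a minimum count, not the difference between the groups. The names were, however, chosen with earlier results of these data known. RNA was sequenced from subcutaneous tumors grown from CT26.WT, a colon carcinoma line of BALB/c origin, in male immunocompetent BALB/c mice that were 4 weeks old when purchased. The 3 tumors of the IFN-γ group came from mice injected with mouse IFN-γ through the tail vein every 48 h, and the 3 control tumors from mice given PBS by the same route. Both groups therefore carried the same wild-type tumor line in the same host strain, and differed in the injected agent. The comparison addresses which genes accompany IFN-γ stimulation in these tumors.

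Interferons bind receptors at the cell surface, and JAK kinases then activate STAT proteins that enter the nucleus. Type I interferons act mainly through a complex of STAT2, its partner STAT protein and IRF9 that binds the interferon-stimulated response element (ISRE), whereas IFN-γ acts mainly through a STAT dimer that binds the gamma-activated site (GAS). The genes induced by these routes overlap, and many of them encode proteins that sense, sequester or degrade viral nucleic acids. In tumors the same genes are expressed by cancer cells and by infiltrating leukocytes, so bulk RNA cannot separate fewer cells of a type from less RNA per cell.

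Promoter sequences are shown first because the ISRE and GAS are the elements through which interferon signalling is known to reach genes of this kind. RefSeq promoters of build GRCm38.p6, running from 250 bases before to 50 bases after a gene's start, were found for 31 of the 43 genes. The genes with no entry were Dhx58, Ifi204, Ifi27, Mx1, Mx2, Oas1b, Oas2, Parp14, Parp9, Rtp4, Usp18 and Zbp1. An ISRE core, searched as GAAA, any 2 bases and GAAA on either strand, was present in 15 of the 31 genes (48.4%), against 3.99% of the 27025 genes with a promoter in the table. A GAS core, searched as TTCNNNGAA (the same letters on both strands), was present in 8 of the 31 (25.8%), against 9.55% of all genes. The Adar window with a GAS core, chr3:89730468-89730767, lies inside the gene, which starts further upstream at 89715022 in the GENCODE M21 annotation. Neither core was found in the windows of Uba7, Herc6, Trim25, Oasl1, Oasl2, Cmpk2, Parp12, Dtx3l, Sp100, Xaf1 and Ifi44. Stretches of 80 bases upstream of the start are given here, as examples of genes with an ISRE core, for Ifit1, Ifit3, Ifit3b, Isg15, a pair of OAS genes, Bst2 and Rsad2. They are written on the strand of the gene, with the ISRE cores in capitals.
Isg15, chr4:156200840-156200919, minus strand: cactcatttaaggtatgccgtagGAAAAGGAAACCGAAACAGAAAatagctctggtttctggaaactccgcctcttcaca
Ifit1, chr19:34640769-34640848, plus strand: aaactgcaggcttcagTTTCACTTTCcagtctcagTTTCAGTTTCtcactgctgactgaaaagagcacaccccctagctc
Ifit3, chr19:34583372-34583451, plus strand: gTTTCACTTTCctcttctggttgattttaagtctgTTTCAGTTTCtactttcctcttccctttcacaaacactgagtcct
Ifit3b, chr19:34607768-34607847, plus strand: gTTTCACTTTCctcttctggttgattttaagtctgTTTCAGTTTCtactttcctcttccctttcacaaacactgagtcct
Oas1a, chr5:120907526-120907605, minus strand: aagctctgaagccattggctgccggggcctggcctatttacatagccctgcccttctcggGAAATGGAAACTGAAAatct
Oas1g, chr5:120887614-120887693, minus strand: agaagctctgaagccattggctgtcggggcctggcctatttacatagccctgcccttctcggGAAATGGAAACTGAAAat
Bst2, chr8:71537552-71537631, minus strand: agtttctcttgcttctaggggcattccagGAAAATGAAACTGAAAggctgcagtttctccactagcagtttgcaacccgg
Rsad2, chr12:26456528-26456607, minus strand: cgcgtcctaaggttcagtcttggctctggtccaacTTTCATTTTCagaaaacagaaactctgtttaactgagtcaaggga

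The stretch of Isg15 held 3 overlapping ISRE cores and those of Ifit1, Ifit3 and Ifit3b held 2 each on the opposite strand. The window of Ifit2 held no ISRE core. The stretches of Ifit3 and Ifit3b were identical over 80 of 80 bases, and those of Oas1a and Oas1g matched at 77 of 78 aligned bases. A match of these letters is a description and not a measured binding site.

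The libraries held 15759300 to 17559680 counts each. Levels are given as CPM (counts scaled to library size with TMM factors, so that libraries are comparable), and a gene with 0 counts could have reached 0.169 to 0.188 CPM, by counting error alone. Each of the 43 genes had between 141 and 7824 counts in each tumor. Trex1, a DNA exonuclease, was the symbol left out, with 0 counts in every tumor. In the GENCODE M21 gene models of GRCm38, all of its exonic bases (100%) lay within exons of Atrip on the same strand, and Atrip had 247 to 292 counts per tumor. Nothing is said here about Trex1 expression for that reason.

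With all 6 tumors, 0 of the 43 genes passed an adjusted p of 0.05 in either direction (edgeR, quasi-likelihood test), where 0.0794% of the 15114 genes tested were called higher and 0.0331% were called lower after IFN-γ. At an unadjusted p under 0.05, 6 of the 43 were higher (14%) and 0 were lower, against 5.74% and 4.44% of all genes tested. These were Ifit3, Ifit3b, Zbp1, Ifi204, Samhd1 and Parp12. DESeq2 and limma-voom also called 0 of the 43 at the adjusted threshold, with 12 and 3 genes at an unadjusted p under 0.05, where 9.47% and 9.83% of all genes tested in those fits were under it in either direction. The fitted log2 fold change was above 0 for 35 of the 43, with a median of 0.23, against a median of 0.0015 over all genes tested.

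The 3 IFN-γ tumors did not behave alike. IFN-γ tumors 1 and 2 were both above every control for 35 of the 43 genes (81.4%), compared with 18.1% of the genes tested. IFN-γ tumor 3 was below every control for 27 of the 43 (62.8%), compared with 29.7% of the genes tested. For 21 of them (48.8%) both held at once, so that the IFN-γ group straddled the control group, a pattern found in 4.32% of the genes tested. IFN-γ tumor 3 was lower than both other IFN-γ tumors for 41 of the 43 genes (95.3%, against 38.9% of the genes tested), the exceptions being Isg20 and Ifi27. IFN-γ tumor 2 was the highest of the 6 tumors for 33 genes (76.7%, against 18.2%). The median log2 ratio to the mean of the controls over the 43 genes was 0.37 in IFN-γ tumor 1, 0.49 in IFN-γ tumor 2 and -0.25 in IFN-γ tumor 3. In control tumors 1, 2 and 3 it was -0.11, 0.11 and -0.0012. Only Ifi204 had all IFN-γ tumors above all controls and only Trim25 had them all below (2.33% each), against 7.62% and 7.5% of the genes tested. Trim25 was also the only one of the 43 with IFN-γ tumors 1 and 2 both below every control, as were 15.8% of the genes tested.

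**Figure D1:**
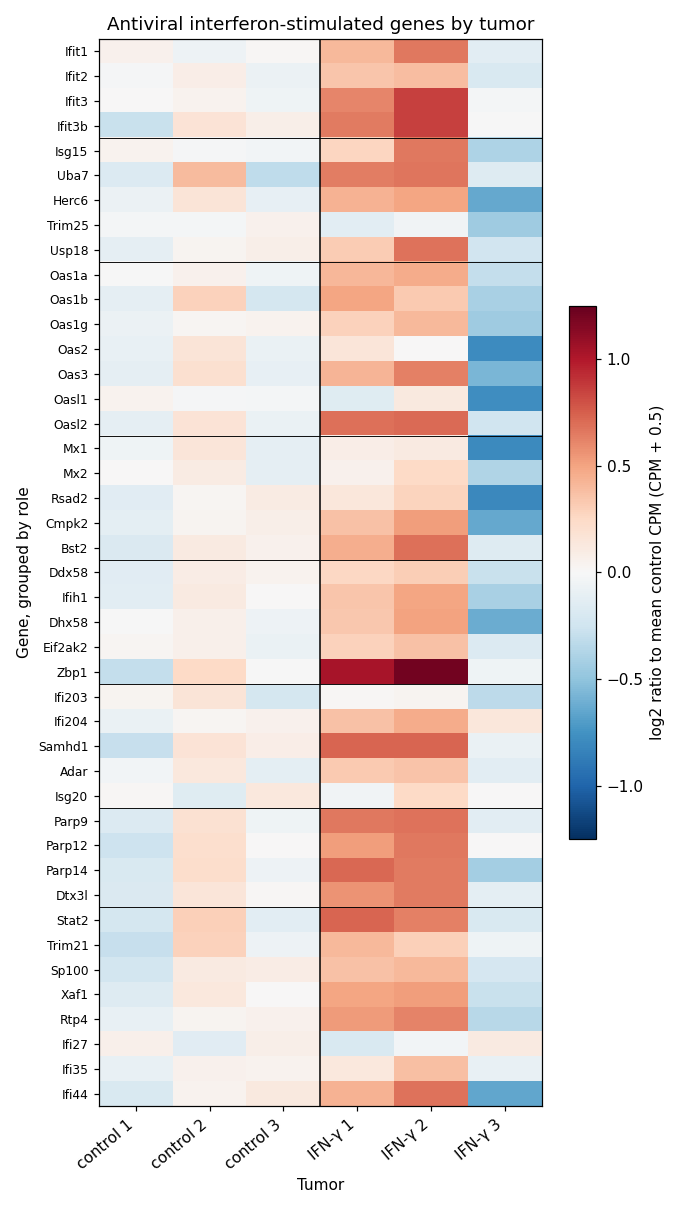
Each row is one of the 43 genes and each column one tumor; color gives the log2 ratio of its CPM to the mean control CPM (0.5 CPM added), and black lines separate groups of genes by role. IFN-γ tumors 1 and 2 are red over most rows, and IFN-γ tumor 3 is blue or near white over most rows.

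Leaving out IFN-γ tumor 3 changed the calls. Of the 43 genes, 21 were then higher at an adjusted p under 0.05 (48.8%) and 0 lower, where 2.46% of the 15487 genes tested were called higher and 0.723% lower. Below, a gene is said to rise or fall in that fit only where it passed this threshold. The median log2 fold change of the 43 genes was 0.44 in that fit, against -0.016 over all genes tested. The other fits that each left out 1 tumor called 0 of the 43. The group difference in the IFN-γ tumors therefore rests on which of them enter, and the genes are described with all 6 tumors and without IFN-γ tumor 3 below. The fit without IFN-γ tumor 3 compares 2 IFN-γ tumors with 3 controls. The tumor left out was lower than both other IFN-γ tumors for 41 of the 43 genes. The p-values of that fit therefore do not measure the spread among all 3 IFN-γ tumors.

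The summed levels of several lists of leukocyte markers, though not all, were also highest in IFN-γ tumors 1 and 2. The place of IFN-γ tumor 3 relative to the controls differed between the lists. All 5 general leukocyte markers were higher in IFN-γ tumors 1 and 2 than in every control, against 18.1% of the genes tested, and none was at 0. Their summed level was 483 to 598 CPM in the controls, 841 CPM in IFN-γ tumor 1, 869 CPM in IFN-γ tumor 2 and 481 CPM in IFN-γ tumor 3. For 10 macrophage and monocyte markers the sum was 3172 to 3818 CPM in the controls and reached 4725, 5775 and 3462 CPM in the IFN-γ tumors, given here and throughout in the order 1, 2, 3, with 7 of the 10 above and 2 (Cd14 and Mrc1) below every control in IFN-γ tumors 1 and 2. The 8 T cell markers summed to 47.3 to 72.1 CPM in the controls and to 98.6, 115 and 39.5 CPM in the IFN-γ tumors, with 6 of the 8 above every control in IFN-γ tumors 1 and 2. Those of NK cells, with Klra8 at 0, summed to 21.1 to 40.6 CPM in the controls and to 49.5, 57.1 and 17.0 CPM in the IFN-γ tumors. In the sums of these lists IFN-γ tumors 1 and 2 stood above the controls and IFN-γ tumor 3 did not. B cell markers had another order, with sums of 8.00 to 12.5 CPM in the controls and 6.79, 8.00 and 6.56 CPM in the IFN-γ tumors. Conventional dendritic cell markers summed to 21.9 to 30.6 CPM in the controls and 41.9, 42.9 and 25.8 CPM in the IFN-γ tumors. Of these, 4 of 6 were above every control in IFN-γ tumors 1 and 2. Neutrophil markers summed to 28.9 to 40.6 CPM and to 44.8, 47.3 and 36.5 CPM, but only 1 of the 4 tested (Csf3r) was above every control in those tumors. Plasmacytoid dendritic cell markers summed to 389 to 458 CPM and to 540, 596 and 402 CPM. Only 1 of those 7 was above every control there, Bst2, itself one of the 43 genes and part of the sum. Adipocyte markers differed again: 5 of 6 were higher in all IFN-γ tumors than in every control, IFN-γ tumor 3 included, against 7.62% of the genes tested. Their sums were 102 to 144 CPM in the controls and 143, 195 and 163 CPM in the IFN-γ tumors. Fibroblast markers summed to 2767 to 3855 CPM in the controls and 3650, 3890 and 2772 CPM in the IFN-γ tumors. Of these, 0 of 6 were above every control in IFN-γ tumors 1 and 2. Endothelial markers summed to 210 to 267 CPM in the controls and 225, 193 and 170 CPM in the IFN-γ tumors, with 0 of 5 above every control in IFN-γ tumors 1 and 2. Markers of the labelled colon carcinoma were mostly low, with Cdx2 at 0 counts in every tumor and Epcam under 1 CPM (39 counts in all). All 10 summed to 171 to 192 CPM in the controls and to 132, 125 and 287 CPM in the IFN-γ tumors. Krt20, an intestinal keratin, was measured at 175, 152 and 159 CPM in the controls and at 119, 113 and 271 CPM in the IFN-γ tumors. The part of these marker levels in the result on the antiviral genes was not tested.

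**Figure D2:**
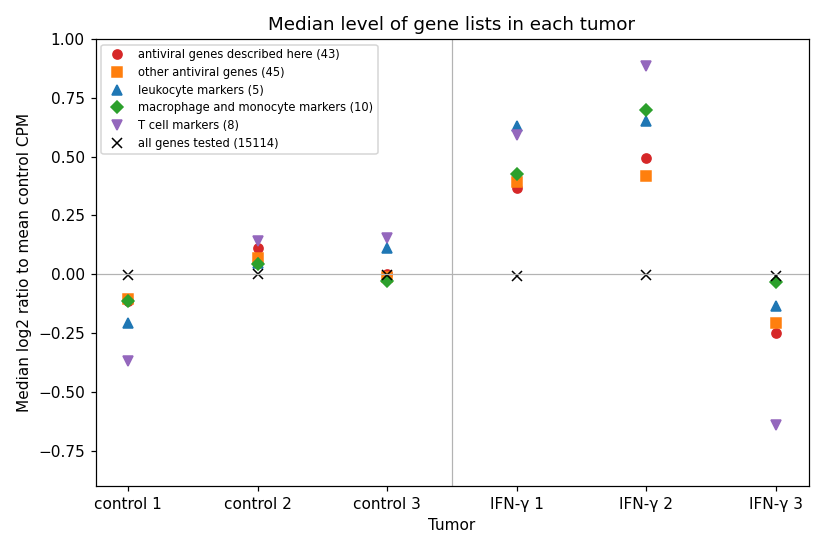
Median log2 ratio to the mean control CPM, over the genes of each list, in each of the 6 tumors. The antiviral genes, the other antiviral genes and the leukocyte, macrophage and T cell markers lie above 0 in IFN-γ tumors 1 and 2 and below 0 in IFN-γ tumor 3, while the median over all genes tested stays near 0.

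The IFIT proteins bind viral RNA with foreign ends and block its translation. The 4 genes lie on chromosome 19 of GRCm38, between 34550694 and 34650009. Ifit3 was measured at 42.6, 43.8 and 41.0 CPM in the controls and at 64.9, 77.3 and 41.8 CPM in the IFN-γ tumors. The highest control was 1.07 times the lowest, and IFN-γ tumor 3 fell among them. Its log2 fold change was 0.53 (SE 0.19, adjusted p = 0.40) with all 6 tumors and 0.73 (SE 0.09, adjusted p = 0.011) without IFN-γ tumor 3. Ifit3b, at 12.3, 16.9 and 15.8 CPM in the controls and 23.7, 27.5 and 14.9 CPM in the IFN-γ tumors, followed the same order within the IFN-γ group. Of the 50-base sequences of its transcripts, 44.5% also occur in Ifit3, and 51.2% of those of Ifit3 occur in Ifit3b, so the division of reads between the pair is uncertain. Ifit1 was at 48.5, 44.6 and 47.1 CPM in the controls and at 62.2, 74.1 and 42.7 CPM in the IFN-γ tumors. Ifit2 was the most even of the 4, at 81.9 to 91.4 CPM in the controls and 109.9, 113 and 75.3 CPM in the IFN-γ tumors. For Ifit1 and Ifit2, IFN-γ tumor 3 was below every control. All 4 rose without IFN-γ tumor 3, with log2 fold changes of 0.36 to 0.76, and 0 of 4 passed with all 6 tumors.

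ISG15 is a ubiquitin-like protein that is attached to other proteins after induction by interferon. Isg15 was at 62.9, 60.3 and 59.4 CPM in the controls, and at 73.5, 96.1 and 46.3 CPM in the IFN-γ tumors. The control values were tight (60.8 ± 1.83 CPM, SD, n = 3) and the IFN-γ values wide (72.0 ± 24.9 CPM, SD, n = 3), lying on both sides of the controls. Uba7, its activating enzyme, was at 48.5, 72.1 and 43.8 CPM in the controls and 85.8, 87.4 and 49.1 CPM in the IFN-γ tumors. The controls of Uba7 differed by up to 1.65-fold, the widest of the 43 genes. Usp18 removes ISG15 from proteins and dampens type I receptor signalling, and had 45.8 to 52.3 CPM in the controls against 61.8, 79.9 and 42.0 CPM. Herc6 is the main ligase of ISG15 in the mouse, and was the one gene of the 5 in this group to pass without IFN-γ tumor 3 (log2 fold change 0.46, SE 0.10, adjusted p = 0.049). Trim25, a ligase that modifies RIG-I, went the other way. It had 104, 104 and 109 CPM in the controls and 96.4, 102 and 77.5 CPM in the IFN-γ tumors, with no overlap. Its log2 fold change was -0.20 (SE 0.10, adjusted p = 0.57) with all 6 tumors and -0.097 (SE 0.07, adjusted p = 0.59) without IFN-γ tumor 3, so it passed in neither.

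The 2′-5′ oligoadenylate synthetases of the OAS family make a second messenger that activates RNase L once they bind double-stranded RNA. Oasl2, an OAS-like protein, was measured at 143, 175 and 146 CPM in the controls and at 249, 253 and 129.9 CPM in the IFN-γ tumors. IFN-γ tumors 1 and 2 agreed closely and stood above all controls, whereas IFN-γ tumor 3 was below them. The log2 fold change of Oasl2 was 0.45 (SE 0.23, adjusted p = 0.56) with all 6 tumors and 0.69 (SE 0.10, adjusted p = 0.014) without IFN-γ tumor 3. Oas1a (0.44) and Oas3 (0.52) were the other members of the family to pass the threshold in that fit. Of the 7 OAS genes, 6 had a log2 fold change above 0 in it. The group was not uniform. Oas2 was at 96.5, 116 and 97.3 CPM in the controls and at 114, 104 and 59.6 CPM in the IFN-γ tumors, and its 2 higher IFN-γ values lay within the control range. Oasl1 was at 46.6 to 48.6 CPM in the controls, a ratio of highest to lowest of 1.04 that was the smallest of the 43 genes. Its IFN-γ values were 42.5, 51.5 and 27.3 CPM, and without IFN-γ tumor 3 its log2 fold change was -0.017 (SE 0.10, adjusted p = 0.96). IFN-γ tumor 3 was below every control for 7 of the 7 OAS genes, against 29.7% of all genes tested. Oas1g, for example, had 20.7 CPM there, against 26.9 to 29.2 CPM in the controls, and Oas1b, a polymorphic pseudogene in the annotation, had 8.72 CPM against a control mean of 11.7 CPM. Oas1a and Oas1g share 57.6% and 45.2% of their 50-base transcript sequences, so reads of this pair may have been divided between them or dropped.

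Mx proteins are GTPases that trap viral ribonucleoproteins. Viperin, encoded by Rsad2, makes a chain-terminating nucleotide from the product of its neighbor Cmpk2, and tetherin, encoded by Bst2, holds budding virus at the cell surface. Bst2 was measured at 233, 286 and 274 CPM in the controls and at 362, 425 and 236 CPM in the IFN-γ tumors. IFN-γ tumor 3 fell within the control range, and the log2 fold change was 0.37 (SE 0.19, adjusted p = 0.57) with all 6 tumors and 0.57 (SE 0.11, adjusted p = 0.033) without it. Cmpk2 rose without IFN-γ tumor 3 (0.44, adjusted p = 0.049), at 33.6 to 38.6 CPM in the controls and 47.2, 52.7 and 23.3 CPM in the IFN-γ tumors. Rsad2, on the same chromosome, was at 19.2, 21.6 and 22.7 CPM in the controls and 23.5, 25.7 and 11.9 CPM in the IFN-γ tumors. It passed in neither fit, with log2 fold changes of -0.057 and 0.21. Mx1 was at 24.9 to 30.2 CPM in the controls and at 28.7, 29.2 and 15.3 CPM in the IFN-γ tumors, and Mx2 at 11.8 to 13.8 CPM and at 13.4, 15.3 and 9.77 CPM. For both Mx genes the values of IFN-γ tumors 1 and 2 overlapped the controls, and without IFN-γ tumor 3 the log2 fold changes were 0.09 and 0.15 (adjusted p = 0.78 and 0.68). Many laboratory strains carry a defective Mx1 allele, and Mx2, like Oas1b, is a polymorphic pseudogene in the annotation. The counts do not show whether either Mx transcript encodes a working protein.

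**Figure D3:**
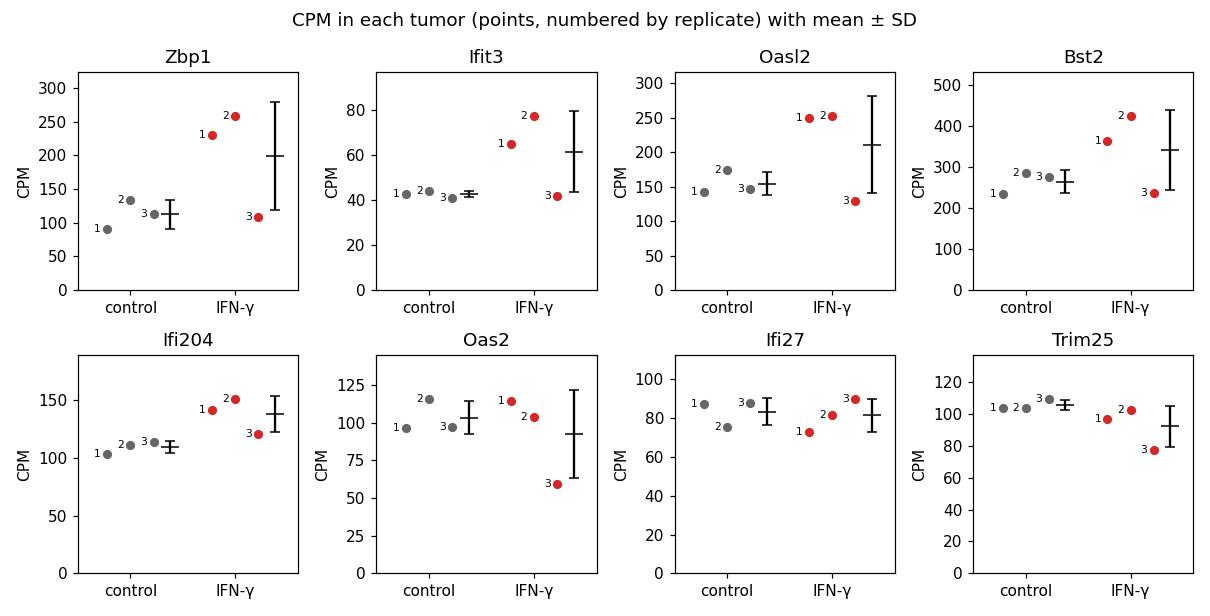
CPM of 8 genes in the 3 control and 3 IFN-γ tumors, as points numbered by replicate, with the mean and SD (n = 3) beside them and axes starting at 0. For Zbp1, Ifit3, Oasl2 and Bst2, IFN-γ tumors 1 and 2 stand above the controls and tumor 3 does not; Ifi204 is the gene whose groups do not overlap upward and Trim25 the one whose groups do not overlap downward.

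Among the cytoplasmic sensors, Zbp1 had the largest change of the 43 genes. ZBP1 binds Z-form nucleic acid and can start necroptosis. Zbp1 was at 91.5, 134 and 112 CPM in the controls and at 231, 259 and 109 CPM in the IFN-γ tumors, so that IFN-γ tumors 1 and 2 were far above the controls and IFN-γ tumor 3 was among them. Its log2 fold change was 0.83 (SE 0.29, adjusted p = 0.39) with all 6 tumors and 1.11 (SE 0.14, adjusted p = 0.011) without IFN-γ tumor 3. It was also the only one of the 43 to pass with all 6 tumors under any alternative, when no filter on low counts was used (adjusted p = 0.041), where 0.558% of all genes were called higher. The RNA helicases moved less. Ddx58, which encodes RIG-I, was at 84.7, 99.8 and 96.3 CPM in the controls and 112, 116 and 77.3 CPM in the IFN-γ tumors. Ifih1, which encodes MDA5, was at 53.6 to 63.4 CPM against 74.5, 82.8 and 44.2 CPM, and Dhx58, which encodes LGP2, at 25.3 to 27.9 CPM against 33.8, 37.8 and 17.1 CPM. Eif2ak2 encodes PKR, the kinase that stops translation on double-stranded RNA, and was at 94.1 to 104 CPM against 122, 129 and 88.6 CPM. These 4 sensors shared 1 order, with IFN-γ tumors 1 and 2 above and IFN-γ tumor 3 below every control. None of the 4 passed in either fit, with adjusted p of 0.056 to 0.15 without IFN-γ tumor 3.

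Among enzymes and sensors that act on nucleic acids, Samhd1 and Ifi204 rose without IFN-γ tumor 3 (2 of 5). SAMHD1 lowers the pool of deoxynucleotides, and Samhd1 was at 224, 307 and 289 CPM in the controls and at 454, 452 and 258 CPM in the IFN-γ tumors. It rose without IFN-γ tumor 3 (log2 fold change 0.72, SE 0.13, adjusted p = 0.024) and had a log2 fold change of 0.50 (SE 0.22, adjusted p = 0.48) with all 6 tumors. Ifi204 encodes a PYHIN protein that senses DNA, and was at 104, 112 and 113 CPM in the controls and at 141, 151 and 121 CPM in the IFN-γ tumors. Its groups did not overlap, and it had the smallest p of the 43 genes with all 6 tumors (log2 fold change 0.33, SE 0.09, unadjusted p = 0.0078, adjusted p = 0.32 from edgeR). Of its 50-base transcript sequences, 14.8% occur in the related gene Ifi211. Its neighbor in the family, Ifi203, did not separate, at 229, 251 and 192 CPM in the controls and 227, 229 and 179 CPM in the IFN-γ tumors. Adar, which encodes an enzyme that edits adenosine in double-stranded RNA, was at 106 to 126 CPM in the controls and 144, 147 and 105 CPM in the IFN-γ tumors (log2 fold change 0.33, adjusted p = 0.099 without IFN-γ tumor 3), and 16.8% of its exonic bases overlap Chrnb2 on the opposite strand. Isg20, an RNA exonuclease, was at 15.2 to 18.6 CPM in the controls and at 16.4, 20.3 and 17.0 CPM in the IFN-γ tumors, and its groups overlapped.

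PARP9 and DTX3L form a complex that modifies histones and ubiquitin, and PARP12 and PARP14 add ADP-ribose to proteins. The 4 genes had the most even fold changes of any group, from 0.40 to 0.45 with all 6 tumors and from 0.58 to 0.68 without IFN-γ tumor 3, where 4 of 4 rose. Parp9 was at 85.8, 110.2 and 93.0 CPM in the controls and at 152, 154 and 88.1 CPM in the IFN-γ tumors. Dtx3l, which lies head to head with Parp9 on chromosome 16, was at 71.3, 89.8 and 81.9 CPM in the controls and at 120.2, 127 and 74.5 CPM in the IFN-γ tumors. Their exons overlap on opposite strands over 9.4% of Parp9 and 8.0% of Dtx3l, and whether the counting used strand is not given in the sources used here. Parp14 was at 115, 153 and 125 CPM in the controls and 216, 206 and 97.5 CPM in the IFN-γ tumors, and Parp12 at 99.7, 138 and 119.7 CPM and at 171, 188 and 119.8 CPM. IFN-γ tumor 3 was below every control for Parp14 and among them for the others.

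The remaining 8 genes hold a transcription factor, nuclear proteins and genes of less defined role. Stat2, a subunit of the complex that binds the ISRE, was at 87.4, 125 and 92.6 CPM in the controls and at 169, 158 and 88.9 CPM in the IFN-γ tumors (log2 fold change without IFN-γ tumor 3 of 0.67, SE 0.14, adjusted p = 0.046). Rtp4, a chaperone of membrane receptors that also restrains viruses, was at 49.1, 53.4 and 54.1 CPM and at 75.6, 80.5 and 40.9 CPM. Ifi44, an interferon-induced protein of the cytoplasm, was at 97.5, 115 and 121 CPM in the controls and at 150.3, 178 and 71.0 CPM in the IFN-γ tumors. Its IFN-γ tumor 3 lay furthest below the mean of the other IFN-γ tumors, at -1.20 on the log2 scale, where the median of the 43 genes was -0.77. Xaf1, a proapoptotic protein, was at 42.6 to 52.3 CPM in the controls and 67.2, 68.4 and 39.2 CPM in the IFN-γ tumors. Stat2, Rtp4, Ifi44 and Xaf1 rose without IFN-γ tumor 3 and did not pass with all 6 tumors. Sp100, of nuclear bodies, Trim21, an antibody receptor of the cytosol, and Ifi35 had log2 fold changes of 0.38, 0.35 and 0.25 without IFN-γ tumor 3, with adjusted p of 0.12, 0.33 and 0.26. Ifi27, a mitochondrial protein, was unlike the rest. It was at 86.9, 75.4 and 87.4 CPM in the controls and at 72.7, 81.5 and 89.8 CPM in the IFN-γ tumors, and was the only gene of the 43 with its highest value in IFN-γ tumor 3. Its log2 fold change was -0.033 (SE 0.10, adjusted p = 0.95) with all 6 tumors.

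**Figure D4:**
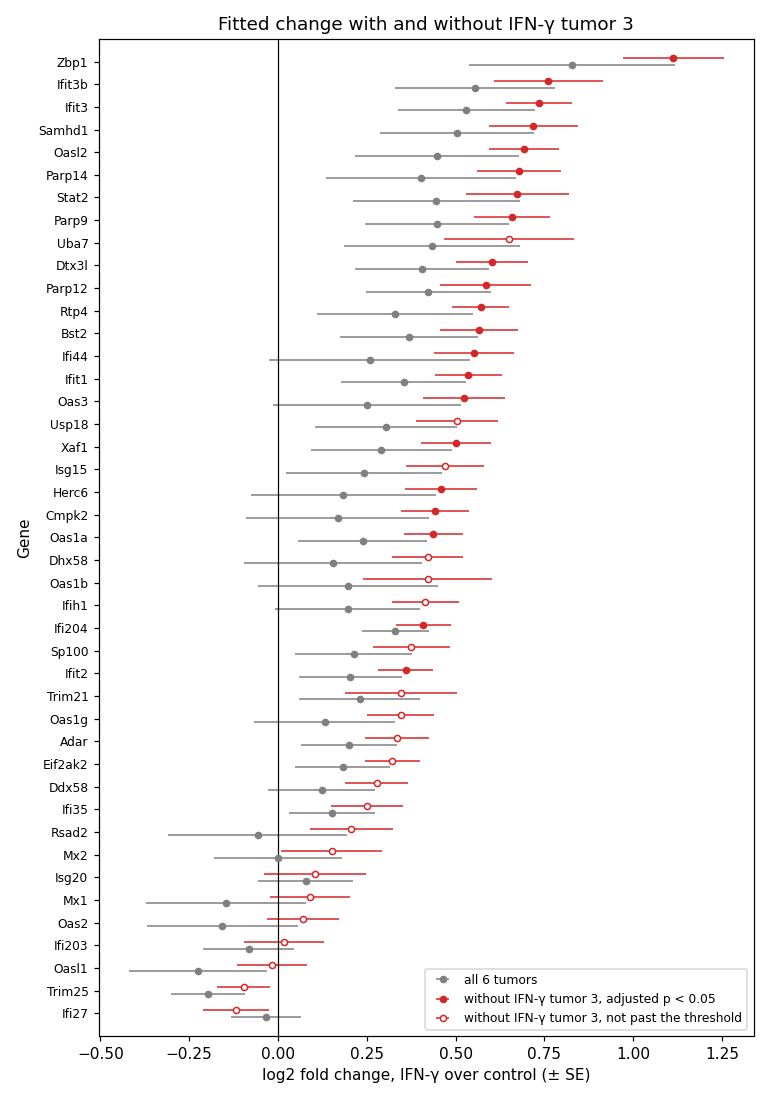
Fitted log2 fold change of the IFN-γ over the control group with its standard error for each of the 43 genes, with all 6 tumors (gray) and without IFN-γ tumor 3 (red, filled where the adjusted p is under 0.05). The 21 filled points lie between 0.36 for Ifit2 and 1.11 for Zbp1, and no gray point passed the threshold.

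Levels in the control tumors were compared between genes as CPM per kilobase of exon. Bst2 was the highest at 293 ± 30.8 CPM per kilobase (SD, n = 3), followed by Isg15 at 80.5 ± 2.42 and Ifi27 at 56.7 ± 4.64. Ifi203 (33.4 ± 4.48), Zbp1 (31.9 ± 5.97), Ifi204 (30.8 ± 1.47), Samhd1 (29.9 ± 4.80) and Parp12 (29.8 ± 4.84) came next on the same scale and differed by less than their spread. The lowest were Mx2 at 3.54 ± 0.282, Herc6 at 4.53 ± 0.470 and Rsad2 at 4.88 ± 0.418 CPM per kilobase, of which Herc6 and Rsad2 differed by less than their spread. Bst2 is also expressed by plasmacytoid dendritic cells, whose marker Siglech had 2.04 to 5.26 CPM over the 6 tumors.

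The genes were also split by the ISRE core. Among the 31 genes with a promoter sequence, the median log2 fold change without IFN-γ tumor 3 was 0.44 in the 15 with the core and 0.45 in the 16 without, and 7 and 9 of them rose. Rsad2, whose stretch holds 1 ISRE core, did not pass, while Samhd1, Dtx3l and Parp12, with no ISRE core in this window, did. For the GAS core the medians were 0.35 in the 8 genes with it and 0.47 in the 23 without.

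Other genes of the pathway were taken from lists. Of 21 interferon ligand genes, 17 had 0 counts in every tumor, and Ifnb1 had 8 counts in all. Reads of Ifng itself were few, at 7, 13 and 23 in the control tumors and 27, 41 and 5 after IFN-γ. IFN-γ tumor 3 had the fewest Ifng reads and the lowest median of the antiviral genes, but its 5 reads were close to the 7 of control tumor 1. A link between Ifng reads and the antiviral genes was not tested. The log2 fold change of Ifng was 0.81 (SE 0.67, adjusted p = 0.75) with all 6 tumors. Of 19 receptor and signalling genes tested, 0 passed with all 6 tumors, and Irf1 and Irf7 rose without IFN-γ tumor 3. In that fit 2.46% of all genes tested were called higher. The 19 had log2 fold changes of -0.14 to 0.60 with all 6 tumors (median 0.16), and only some of them are named here. Irf7, the factor that amplifies type I interferon, was at 178, 186 and 178 CPM in the controls and at 261, 335 and 125 CPM in the IFN-γ tumors. Its IFN-γ tumors 1 and 2 were above and its IFN-γ tumor 3 below every control, as for 21 of the 43 genes. Irf9, the DNA-binding subunit of the ISRE complex, was at 57.3 to 69.6 CPM and at 83.4, 76.4 and 59.3 CPM. Socs1, an inhibitor of JAK kinases, differed in order. It was at 17.8, 17.1 and 17.3 CPM in the controls and at 25.3, 23.5 and 27.1 CPM in the IFN-γ tumors, with the highest value in IFN-γ tumor 3 (log2 fold change 0.54, SE 0.10, adjusted p = 0.14 with all 6 tumors). The receptor genes Ifnar1, Ifnar2, Ifngr1 and Ifngr2 had log2 fold changes of 0.14 to 0.21 with all 6 tumors and did not pass.

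A further list of 48 antiviral interferon-induced genes outside the set, of which 45 were tested, gave a like picture. With all 6 tumors 0 passed, the median log2 fold change was 0.24 and 39 were above 0. Without IFN-γ tumor 3, 13 rose and 0 fell, where 2.46% of all genes tested were called higher and 0.723% lower, and the median was 0.44. Ms4a4c had the smallest adjusted p, at 35.3, 35.1 and 45.2 CPM in the controls and 75.6, 91.2 and 33.7 CPM in the IFN-γ tumors (log2 fold change 1.10, SE 0.13, adjusted p = 0.0096 without IFN-γ tumor 3). Ly6a (0.96), Sp140 (0.50), Apol9a (0.55), Apol9b (0.70), Gm4951 (0.98), Lgals3bp (0.53) and Ifi27l2a (0.75) followed, each with its log2 fold change in that fit. Sp140 was the one among them with no overlap between the groups, at 71.3 to 72.6 CPM in the controls and 104, 101 and 80.6 CPM in the IFN-γ tumors. Tap1 (0.85) and Ifi30 (0.59), also among the 13, encode proteins of antigen presentation.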

How the data were processed

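Whole-number read counts per gene for 6 tumors (3 control, 3 IFN-γ) were deposited by the authors in 1 table, not normalized. HISAT2 and build mm10 are named in the submitters' processing notes, and the counting program and strandedness are not given in the sources used here. Of the 55487 gene identifiers, 99.4% are in GENCODE M21, which gave positions and exon lengths. The study's methods give 6 mice per group, and how the sequenced tumors were picked from them is not given in the sources used here, so p-values measure the spread between these tumors. The study's legends give 2 IFN-γ tumors for its own sequencing comparisons and do not name them, whereas all 3 labelled IFN-γ tumors were used here. All genes were tested with edgeR 4.0.16 in R 4.3.3 (TMM factors, default low-count filter, quasi-likelihood test, Benjamini-Hochberg adjustment over all genes tested, threshold 0.05), and the script was tested on simulated data. The standard error was the log2 fold change divided by the square root of F. Ratios by tumor used CPM plus 0.5. DESeq2 1.42.0, limma 3.58.1 (voom), other scaling, other filters, a replicate block and fits without 1 tumor were alternatives. The 43 genes, gene lists and groups by role were chosen with earlier results of these data known. All of the 43 genes were named, but only some of the signalling genes tested. Of the other antiviral genes, the 8 with the smallest p without IFN-γ tumor 3 were named, with Tap1 and Ifi30 added. Promoters were RefSeq sequences of GRCm38.p6.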

Additional observations from a re-analysis of the deposited data

How the results depend on the processing

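For all genes, 12 were called higher and 5 lower with all 6 tumors. DESeq2 gave 118 and 73, no filter on low counts 150 and 70, and a replicate block 5 and 2, while library size only gave 7 higher and limma-voom 3 lower. The fits without 1 tumor gave from 4 to 381 higher and from 2 to 112 lower, both extremes at the top being without IFN-γ tumor 3. Of the 43 antiviral genes, 0 were called with all 6 tumors, 1 (Zbp1) with no filter on low counts, and from 0 to 21 in the fits without 1 tumor, the 21 being without IFN-γ tumor 3. The other alternatives, the replicate block among them, called 0. Their median log2 fold change lay between 0.10 (without IFN-γ tumor 2) and 0.44. In fits without 1 tumor the sign of the log2 fold change turned for 13 genes, none of them past the threshold where it turned. It ranged from -0.024 to 0.47 for Isg15, from -0.0041 to 0.46 for Herc6, from -0.033 to 0.34 for Oas1g, from -0.054 to 0.44 for Cmpk2, from -0.064 to 0.42 for Dhx58 and from -0.011 to 0.55 for Ifi44, each lowest without IFN-γ tumor 2 and highest without IFN-γ tumor 3. The range was -0.34 to 0.071 for Oas2, -0.30 to 0.090 for Mx1, -0.15 to 0.15 for Mx2, -0.26 to 0.21 for Rsad2, -0.19 to 0.016 for Ifi203, -0.023 to 0.14 for Isg20 and -0.12 to 0.042 for Ifi27. The deviations of same-numbered tumors from their group means had correlations of -0.24, -0.0047 and -0.22. With 3 tumors per group these values cannot show whether the numbers pair the tumors. The cause of the changes between fits was not tested.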
